A study of Mus musculus with 2 samples.

Results

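The Snrpn and Ube3a domain was taken as the stretch of mouse chromosome 7 from the first to the last of 5 listed imprinted genes, Ube3a, Snrpn, Ndn, Magel2 and Mkrn3, with 100 kb added on each side (chr7:66384122-69665039, mm9 build, genes as annotated in GENCODE M1). It spans 3281 kb, 2.28% of the known sequence of the chromosome, and holds 205 annotated genes, of which 11 are protein-coding, out of 22367 protein-coding genes in all. Of the 33788 CTCF peaks deposited for the genome, 12 had their summit in it. All of these peaks were kept, and they are numbered 1 to 12 here from the Ube3a end to the Mkrn3 end.

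The measurements came from chromatin immunoprecipitation followed by sequencing (ChIP-seq) in R1/E cells, a line of mouse embryonic stem cells (ESC). These ESC carried a stably integrated bacterial artificial chromosome (BAC) with the Ctcf gene fused to a C-terminal GFP-containing tag, beside their own untagged Ctcf genes, and resistant clones had been sorted for GFP fluorescence. One library was made with an antibody against GFP (CTCF-GFP ChIP) and the other with goat IgG from the same kind of cells, a control that the labels also call input DNA. Chromatin had been fixed with formaldehyde and sheared to fragments of about 500 bp. There was 1 library per antibody and no replicate, so every test below compares these 2 libraries and every interval covers counting error only. The CTCF library held 8391191 tags of 35 bases and the IgG library 7988889, and no position was used by more than 1 tag per strand. The cells hold a maternal and a paternal copy of the domain, which these tags do not tell apart, and no expression was measured in these files.

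CTCF is a zinc-finger protein that binds a long, directional DNA motif, helps to fold chromosomes into loops together with cohesin, and at some imprinted genes binds only the unmethylated parental allele. Imprinted genes are expressed from the maternal or the paternal copy alone, under the control of a differentially methylated imprinting centre. In this domain, whose human counterpart is lost or silenced in Prader-Willi and Angelman syndromes, the imprinting centre lies at the main Snrpn promoter. Snrpn (a spliceosomal protein), Ndn (necdin, a growth regulator of neurons), Magel2 (a regulator of protein recycling), Mkrn3 (a zinc-finger protein that restrains puberty) and Peg12 are expressed from the paternal copy. Ube3a, a ubiquitin ligase, is expressed from the maternal copy in neurons, where a long transcript from the Snrpn side, the host of the SNORD115 and SNORD116 small nucleolar RNAs, runs antisense to it on the paternal copy.

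The sites were sparse along most of the domain and dense at its Mkrn3 end. With 12 summits in the known sequence the domain held 3.71 peaks per Mb. The rest of chromosome 7 held 16 per Mb and the genome 13.2 per Mb. The ratio to the rest of the chromosome was 0.231 (exact 95% interval of the count, 0.12 to 0.404). That interval takes peaks as independent, although they lie in clusters. Fewer than 10 IgG tags were found in 21.3% of the domain's windows of 10 kb, against 10.4% on the rest of the chromosome. In windows with at least 10 IgG tags the ratio was 0.261. The 172 kb from the Ndn gene to the end of the domain held 7 of the 12 peaks, or 40.7 per Mb. The 901 kb from the Ube3a end to the upstream start of Snrpn held 1 peak, and the 2208 kb between Snrpn and Ndn held 4.

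**Figure D1:**
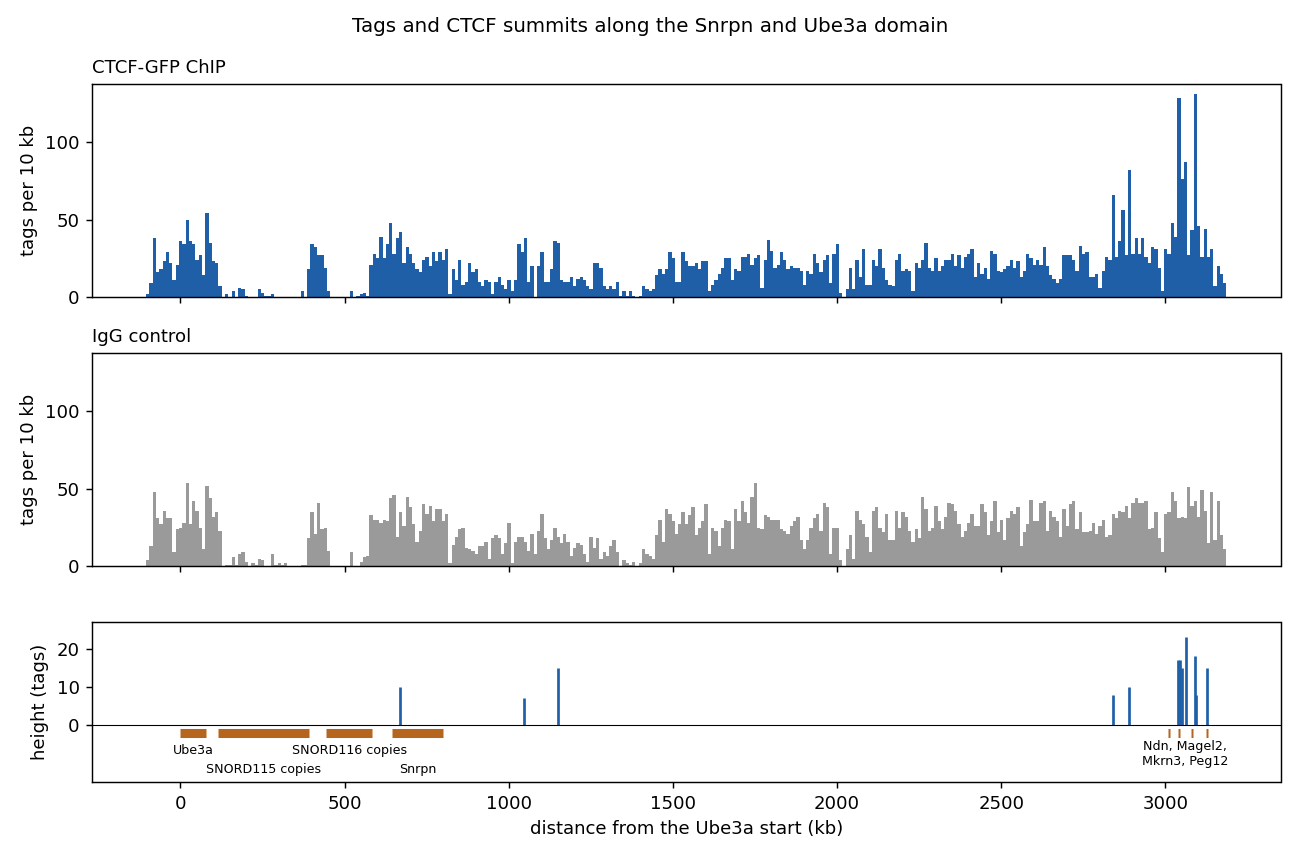
Tags per 10 kb (upper panel, CTCF-GFP ChIP; middle panel, IgG control) and summit heights in tags (lower panel) against the distance from the Ube3a start in kb, with genes as brown bars. The highest CTCF window holds 131 tags and lies in the Magel2 to Peg12 cluster, no IgG window exceeds 54, and both libraries are nearly empty over the SNORD115 and SNORD116 copies.

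The DNA under these peaks is shown first, since the results turn on the motif that it holds. Each line gives, on the strand that reads in the motif's direction, 39 bases of mm9 with the best match to the 19-base CTCF motif in capitals, for the tallest peaks, the peaks nearest to the genes, those beside the longest empty stretches, and peak 11 for its likeness to peak 10 (peaks 2 and 5, which have no motif, are left out; peak 1 is the peak nearest to Snrpn and has a poor match only).
Peak 1, chr7:67152782-67152820, plus strand: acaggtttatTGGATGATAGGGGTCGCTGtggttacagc
Peak 3, chr7:67633110-67633148, plus strand: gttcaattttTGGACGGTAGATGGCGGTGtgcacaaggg
Peak 4, chr7:69324475-69324513, plus strand: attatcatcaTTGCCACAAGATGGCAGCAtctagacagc
Peak 6, chr7:69520716-69520754, minus strand: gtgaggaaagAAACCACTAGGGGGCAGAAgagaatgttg
Peak 7, chr7:69527475-69527513, minus strand: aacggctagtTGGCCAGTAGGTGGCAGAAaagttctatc
Peak 8, chr7:69533361-69533399, minus strand: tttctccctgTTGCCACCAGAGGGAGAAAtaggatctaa
Peak 9, chr7:69545161-69545199, minus strand: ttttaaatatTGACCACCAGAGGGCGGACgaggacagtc
Peak 10, chr7:69573400-69573438, minus strand: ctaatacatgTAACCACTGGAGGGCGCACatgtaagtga
Peak 11, chr7:69578329-69578367, minus strand: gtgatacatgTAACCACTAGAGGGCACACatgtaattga
Peak 12, chr7:69609567-69609605, plus strand: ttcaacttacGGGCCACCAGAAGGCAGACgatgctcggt

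A motif was called where a match reached a p of 1e-05 within 150 bp of the summit. By this rule 9 of the 12 peaks carried a motif (75%, Wilson 95% interval 46.8 to 91.1), against 72.6% of all peaks. At a stricter p of 1e-06 it was 5 of 12 (41.7%, 19.3 to 68.0), against 53.9% of all peaks. Peaks 1, 2 and 5 had none, and their best matches scored 0.36, 8.94 and 5.07 bits, whereas those of the other 9 scored 16.17 to 22.07 bits. The strongest match of any peak in the domain was that of peak 4, at 22.07 bits. The distance rule mattered, since only 3 of the 12 summits (25%) had a motif within 50 bp, against 31.8% of all summits.

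The motifs pointed mostly one way. Of the 9 motifs, 6 lay on the minus strand and 3 on the plus strand, and the 6 minus-strand motifs were those of the neighbouring peaks 6 to 11. Among the 7 pairs of neighbouring peaks that both had a motif, 6 pointed the same way, 1 (peaks 11 and 12) pointed apart, and none pointed towards each other. The nearest summits outside the domain, 48.5 kb before its Ube3a edge and 22.2 kb past its Mkrn3 edge, had a minus-strand motif of 17.68 bits and a plus-strand motif of 21.81 bits. Peaks 3 and 4, a pair that pointed the same way, lay 1691 kb apart. No test was made of these directions, and the shares of such pairs over all peaks are not given here.

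Peak heights in the domain were ordinary for this library. A summit height is the number of tags stacked at the summit, and the score is -10 times the log10 of the p-value that the MACS program gave to the peak against IgG. Heights in the domain ran from 7 to 23 tags with a median of 15, against a median of 13 and a maximum of 89 over all peaks. Scores ran from 51.2 to 311.35 with a median of 118, against 117 over all peaks and a lowest deposited score of 50. Together the 12 peaks held 350 CTCF tags and 43 IgG tags, and the ratio scaled by depth was 7.75 (5.63 to 10.9), against 8.73 (8.68 to 8.79) over all peaks. They took up 5.49% of the CTCF tags of the domain (Wilson 95% interval 4.95 to 6.07) and 0.571% of its IgG tags (0.424 to 0.768). These ratios describe sites that were called from the same tags and were not tested.

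Magel2 and Mkrn3 stand in the dense part of the domain. Magel2 (chr7:69521865-69526526, plus strand) was framed by peaks on both sides. Peak 6 lay 1039 bp upstream of its start and held 45 CTCF tags against 5 IgG tags, with a score of 267.06 and a height of 17, higher in score than 90.8% of all peaks. Peak 7 lay 5745 bp past the start, beyond the gene's end, with 40 CTCF tags, 6 IgG tags and the same height of 17. Between both summits, over the body of the gene, 20 CTCF tags and 8 IgG tags were counted, a ratio of 2.38 (1 to 6.25). Both motifs lay on the minus strand, opposite to the gene. Peak 8, between peak 7 and the tallest peak, held 29 CTCF tags and 3 IgG tags with a height of 15, and its motif was 1 bp from the summit.

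The tallest peak of the domain, peak 9, stood in the intergenic sequence between Magel2 and Mkrn3. Its height was 23 tags, above 92.2% of all peaks, and it held 42 CTCF tags and no IgG tag. With the empty control set to the floor of 3 tags that a count of 0 allows, the ratio was 13.3. The exact lower limit for counting error was 10.4. The 42 tags are those moved to the fragment centre, and 43 lay in the peak before the move. Of those 43, 27 lay on the plus strand with a median position of -143 bp from the summit, and 16 on the minus strand with a median of 18.5 bp, the order in which reads from the fragments of one bound site fall. Peak 9 carried 2 motif matches. The 300 bases of mm9 plus-strand sequence around its summit, chr7:69545149-69545448, are given with both matches in capitals (both lie on the minus strand, so that each reads here as its reverse complement).
Around the summit of peak 9: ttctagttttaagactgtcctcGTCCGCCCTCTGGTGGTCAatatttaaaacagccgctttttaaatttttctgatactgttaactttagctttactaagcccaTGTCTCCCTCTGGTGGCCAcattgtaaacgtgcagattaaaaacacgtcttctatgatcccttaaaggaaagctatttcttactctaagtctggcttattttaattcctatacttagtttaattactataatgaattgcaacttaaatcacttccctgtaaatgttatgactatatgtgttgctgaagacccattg
Both matches point the same way, and their starts lie 82 bp apart.

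Mkrn3 (chr7:69562479-69565039, minus strand) had no summit within its gene. The nearest was peak 10, 8279 bp upstream of its start, which held the most tags of all 12 peaks, 61 in the CTCF library against 8 in the IgG library, and the highest score, 311.35. Peak 11, 4929 bp further on, was among the lowest, with 13 CTCF tags, 2 IgG tags and a height of 8. The 39 bases printed for peaks 10 and 11 were identical at 34 positions, and in the 19-base match they differed only by G9A and G16A, counted from the 5′ end of the match of peak 10. The likeness was local, since identity fell to 78.2% over the 101 bases centred on the match and to 57.7% over 201 bases. In both, the match scored past the limit (16.86 and 19.97 bits), and the peak with fewer tags had the better match.

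Peg12, a single-exon gene for a paternally expressed protein (chr7:69606757-69609396, minus strand), had the nearest summit of the domain's 11 protein-coding gene starts. Peak 12 lay 243 bp upstream of it and held 23 CTCF tags and 3 IgG tags, with a height of 15. Within 500 bp of the Peg12 start there were 19 CTCF tags and 1 IgG tag, a ratio of 18.1 (2.88 to 752), which passed the exact binomial test over all gene starts (Benjamini-Hochberg adjusted p = 0.00181), although peak 12 had been called from the same tags and the test is no separate evidence for it. Only 7.91% of all protein-coding gene starts had a summit within 1 kb. The sequence around this summit, chr7:69609490-69609789 of mm9 on the plus strand, is shown because it holds a pair of matches on the same strand, in capitals.
Around the summit of peak 12: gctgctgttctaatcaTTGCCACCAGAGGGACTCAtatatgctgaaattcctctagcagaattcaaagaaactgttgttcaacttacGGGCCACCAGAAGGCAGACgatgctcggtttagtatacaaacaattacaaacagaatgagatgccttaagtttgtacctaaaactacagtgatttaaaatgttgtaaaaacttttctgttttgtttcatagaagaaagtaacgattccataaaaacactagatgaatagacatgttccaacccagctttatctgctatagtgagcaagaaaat
Peaks 9 and 12 were the only peaks of the domain with more than 1 match, a feature of 3.89% of all peaks.

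**Figure D2:**
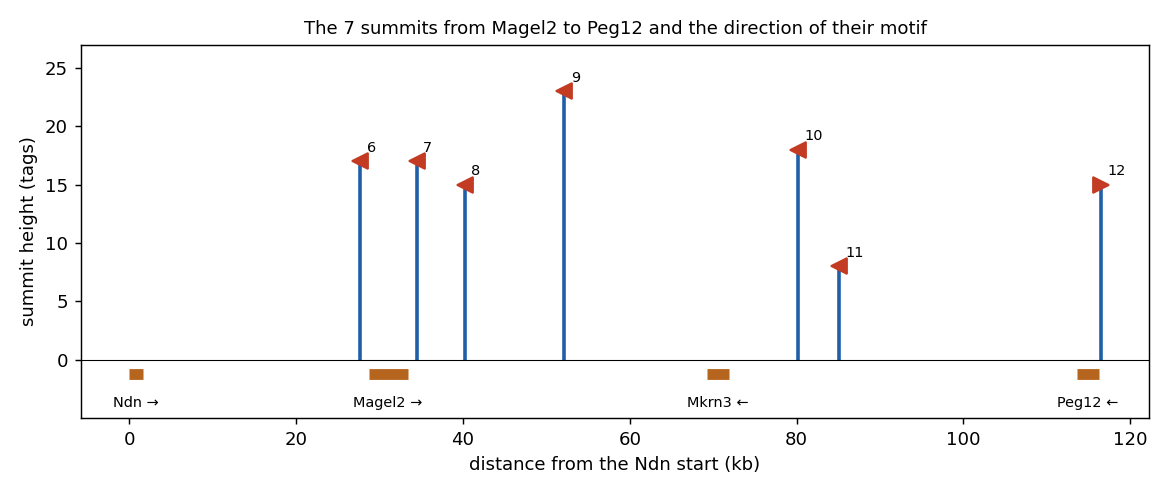
Summit height in tags of peaks 6 to 12 against the distance in kb from the Ndn start, with genes as brown bars (arrows beside names give the strand) and red triangles for the direction of the motif (right, plus strand; left, minus strand). Peaks 6 to 11 all point left, peak 12 points right, and heights range from 8 to 23 tags.

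Ndn (chr7:69493163-69494814, plus strand) lay at the border of this cluster but had no site of its own. Its start was 27.7 kb from peak 6 and 120 kb from peak 5, and 64.7% of all gene starts had a nearer summit. At its start there was 1 CTCF tag and 1 IgG tag, and over its body 3 and 5. The Ndn start window nevertheless held a match of 13.33 bits, just past the limit of 13.06 bits that defined a motif, and no enrichment was detectable there at this depth.

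Peaks 4 and 5 stood alone upstream of Ndn, 169 kb and 120 kb from its start. Peak 4 held 20 CTCF tags and 3 IgG tags with a height of 8 over the strongest motif of any peak in the domain. Peak 5 held 35 and 7 tags with a height of 10, spread over 1337 bp, and lacked a motif. The median position of its moved CTCF tags was -331 bp from the deposited summit, the largest such offset of the 12 peaks.

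**Figure D3:**
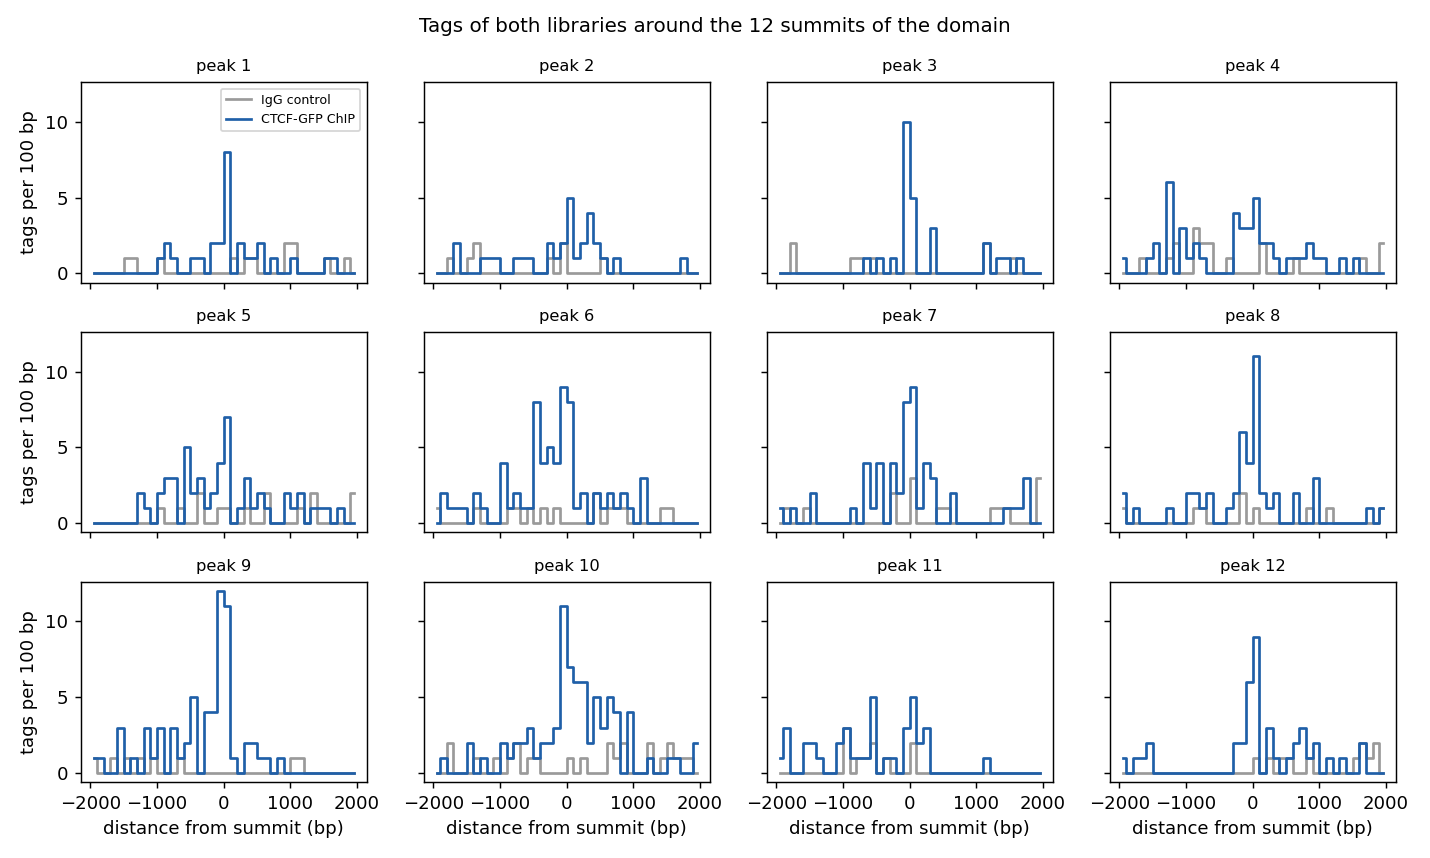
Tags per 100 bp of the CTCF-GFP ChIP (blue) and the IgG control (grey) within 2000 bp of each of the 12 summits, on one scale. Peak 9 has the highest bin, peaks 5, 6 and 10 are spread over about 1 kb, and IgG tags stay low throughout.

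Snrpn has an annotated start far upstream (chr7:67285105, minus strand) and a further one, of transcript Snrpn-201, at position 67150042, nearer to the snoRNA genes. Which of these starts is the main promoter was not determined here. The counts over the 5 listed gene starts used the upstream start, except where any transcript start counted. Peak 1, the only peak inside a listed gene, lay in an intron of the long transcript and 2754 bp upstream of the Snrpn-201 start. It held 15 CTCF tags and 3 IgG tags, a ratio of 4.76 (1.35 to 25.7), with a height of 10 and a score of 65.87, so that 17.8% of all peaks scored lower. Its best motif match, at 0.36 bits, had a p of 0.00167 and was no motif by the rule used. At the Snrpn-201 start itself there were 3 CTCF tags and no IgG tag, at the floor of counting, and at the upstream start 6 and 4 tags, a ratio of 1.43 (0.339 to 6.88). Over the whole gene body 420 CTCF tags stood against 523 IgG tags, a ratio of 0.765 (0.671 to 0.871). The plus-strand sequence of mm9 at peak 1, chr7:67152696-67152896, holds no match and so no capitals, and is shown as the peak nearest to the Snrpn-201 start.
Around the summit of peak 1: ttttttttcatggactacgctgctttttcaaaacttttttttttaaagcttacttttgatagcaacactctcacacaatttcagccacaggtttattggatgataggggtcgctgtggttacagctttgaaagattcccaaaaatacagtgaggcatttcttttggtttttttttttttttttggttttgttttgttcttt

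Ube3a (chr7:66484122-66562097, plus strand) had no summit nearby and yet the clearest excess of tags at its start among the 5 listed genes. The nearest summit lay 149 kb upstream, outside the domain, and the nearest on the other side was peak 1, 669 kb away. Within 500 bp of the Ube3a start, 11 CTCF tags and no IgG tag were counted, a ratio of 3.49 against the floor of 3 tags (exact 95% lower limit, 2.39). This passed the exact binomial test with adjusted p = 0.0226, but not when the window was widened to 1000 bp on each side, where the counts were 12 and 2 (adjusted p = 0.0973). None of the peaks used here lay at this start. The best motif match of the Ube3a start window scored 12 bits, under the limit of 13.06 bits.

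The base composition of the Ube3a start belongs beside this value. The 1001-base window is a CpG island by its content, with 64.5% G+C and 95 CpG dinucleotides. Over the 2970 gene starts of the genome with 60 to 70% G+C and no summit within 10 kb, the CTCF library held 7391 tags and the IgG library 3494, a ratio of 2.01 (1.93 to 2.1), against 0.782 (0.755 to 0.809) at such starts below 40% G+C. Of those 2970 starts, 11 (0.37%), Ube3a among them, were called. What part base composition has in the excess at Ube3a was not tested. The 250 bases of mm9 before the Ube3a start, chr7:66483872-66484121 on the plus strand, hold 24 CpG dinucleotides (capitals) and are shown as a member start with tags but no peak and no motif.
Upstream of Ube3a: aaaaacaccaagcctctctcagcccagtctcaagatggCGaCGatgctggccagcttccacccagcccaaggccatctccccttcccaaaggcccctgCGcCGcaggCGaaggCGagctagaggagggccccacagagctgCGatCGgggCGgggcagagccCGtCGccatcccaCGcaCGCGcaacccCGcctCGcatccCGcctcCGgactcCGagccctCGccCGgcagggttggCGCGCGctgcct

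Among the 5 listed genes the test over all gene starts thus called 1, Ube3a, beside a background of 5.31% of 20754 protein-coding gene starts with at least 1 tag. At Magel2 there were 10 CTCF tags and 4 IgG tags (ratio 2.38, 0.686 to 10.4; exact binomial test, adjusted p = 0.797). Mkrn3 had 2 tags in each library. A summit within 10 kb of the gene start was found for 2 of the 5, Magel2 and Mkrn3, beside 38.4% of all 22367 protein-coding gene starts. When any protein-coding transcript start of a gene counted, a rule added after the data were seen, it was 3 of 5 with Snrpn through the Snrpn-201 start, beside 41.8% of 22352 genes.

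**Figure D4:**
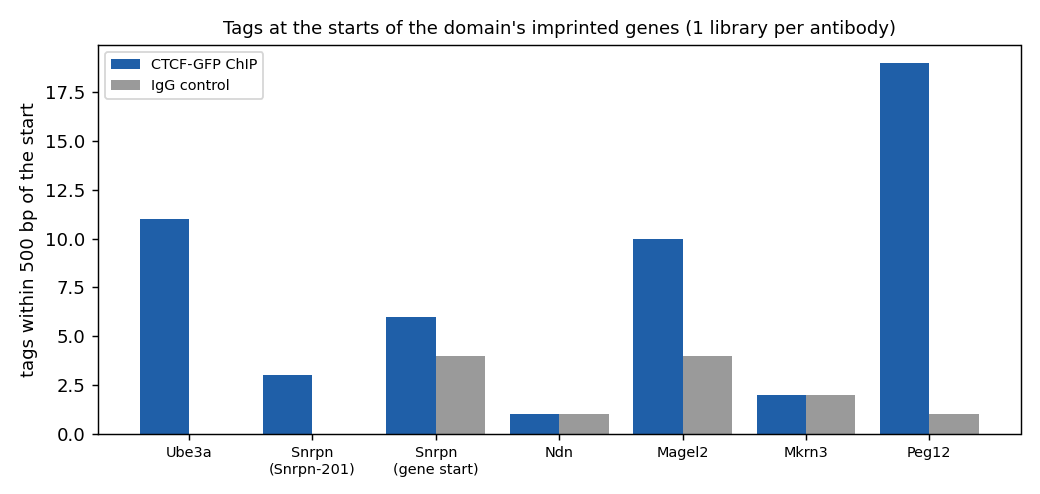
Tags within 500 bp of the start of each imprinted gene of the domain in the CTCF-GFP ChIP (blue) and the IgG control (grey), 1 library each, in chromosomal order. Peg12 (19 against 1) and Ube3a (11 against 0) stand out, and Ndn and Mkrn3 have equal counts in both libraries.

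Between Snrpn and peak 4 the domain held the longest stretch without a site. From peak 3 to peak 4 there was no summit over 1691 kb, the 5th longest of 2236 distances between neighbouring summits on chromosome 7, whose median was 20.9 kb. It was covered by tags, for it held 4120 IgG tags, or 24.4 per 10 kb, and 23 of its 168 windows of 10 kb had fewer than 10 IgG tags. Its CTCF to IgG ratio was 0.696 (0.664 to 0.729). It also held 48 motif matches, or 28.4 per Mb, none of them in a peak. Its protein-coding genes are A230006K03Rik and Ube2nl. With only those peaks that scored 100 or more, peaks 1 to 4 and the nearest summit before the domain (score 76.46) were all left out. The longest stretch then reached peak 5 from a summit 544 kb before the domain, 3533 kb in all, of which 2989 kb lay in the domain.

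The other long stretch, 817 kb from the last summit before the domain to peak 1, was less well covered by tags. It spans Ube3a and the small nucleolar RNA genes and ranked 20th on the chromosome. In it 41 of 81 windows had fewer than 10 IgG tags, and 50000 bases are unknown in mm9. The 137 annotated SNORD115 copies, over 277 kb, held 51 CTCF tags and 97 IgG tags, and 26 of 27 windows fell under 10 IgG tags. Over the 27 SNORD116 copies, 139 kb long, the counts were 25 and 56, with 12 of 13 windows under that limit. Sites in these repeated genes were not detectable with so few tags. The Ube3a gene body was covered, with 256 CTCF tags and 241 IgG tags (ratio 1.01, 0.845 to 1.21), 4 motif matches and no peak.

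At the motif limit of 1e-05 the domain had few sites and few motifs. Densities of matches at other limits are not compared here. In the whole domain 111 motif matches were found, 34.4 per Mb, against 119 per Mb on the rest of chromosome 7, a ratio of 0.29 beside the ratio of 0.231 for peaks. Of these matches 12 lay in a peak (10.8%, Wilson 95% interval 6.29 to 18.0), against 13.2% (12.7 to 13.7) of 16447 matches on the rest of the chromosome. With the looser limit of 1e-04 the shares lay further apart, 1.21% (0.72 to 2.01) of 1161 matches in the domain against 4.35% (4.22 to 4.49) of 87579 elsewhere on the chromosome. The G+C content of the domain, 38.3%, was lower than the 43% of the chromosome. At the 99 matches outside peaks, 119 CTCF tags and 80 IgG tags lay within 150 bp, a ratio of 1.42 (1.06 to 1.9), against 2.14 (2.09 to 2.19) at the 14277 such matches elsewhere on chromosome 7. The best match of the whole domain, 24.9 bits at chr7:69216895-69216913, lay in no peak and had 2 CTCF tags and 1 IgG tag within 150 bp.

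Peaks 2 and 3 lay beside and on copies of one repeated sequence. The 19-base match of peak 3 occurs 4 times in the genome, each time in this domain and on the plus strand, and a near copy that differs by A4C (counted from the 5′ end of the match) is the fifth. The 301 bases centred on these matches were 77.7 to 96.3% identical to those of peak 3, whereas at the 20 other places in the genome with up to 2 changed bases in the match, identity was 20.6 to 35.5%. The copies follow each other at 101 to 148 kb along the sequence beyond Snrpn, and the 4 copies other than that of peak 3 are printed for comparison with it. The first has the same 39 bases as peak 3.
First copy, chr7:67383854-67383892, plus strand: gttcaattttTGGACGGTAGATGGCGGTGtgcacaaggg
Copy beside peak 2, chr7:67532027-67532065, plus strand: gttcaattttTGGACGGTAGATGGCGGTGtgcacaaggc
Copy after peak 3, chr7:67762332-67762370, plus strand: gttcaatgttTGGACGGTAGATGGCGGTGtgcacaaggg
Last copy, chr7:67873387-67873425, plus strand: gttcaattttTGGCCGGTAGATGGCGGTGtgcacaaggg

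Tags at the 5 copies were unequal. In order along the chromosome they had 5, 8, 15, 8 and 0 CTCF tags within 150 bp, and 0, 1, 0, 0 and 0 IgG tags. The third copy is peak 3, with 16 CTCF tags and no IgG tag over the whole peak and a height of 15. The ratio of peak 3 against the floor of 3 tags was 5.08 (exact lower limit for counting error, 3.67). The copy with 8 and 1 tags lies 406 bp from the summit of peak 2, just outside that peak, which held 11 CTCF and 3 IgG tags and had the lowest score of the 12, 51.2. The other copies were in no peak. Beside these counts stands the likeness of the copies. Between 46.8 and 70% of the 35-base strings around them occur once on chromosome 7, and from the first to the last copy IgG tags stood at 13.2 per 10 kb, against 23.3 over the domain. How many tags of one copy were lost or placed at another was not tested.

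A count in windows of 300 bp, made without the deposited peak positions but from the same tags, found no further site. Its limit, a p of 1e-05, equals the lowest deposited score of 50. The count is therefore no separate evidence that the list of peaks is complete. Of 10937 windows in the domain, 14 (0.128%) had more CTCF tags than the local IgG background at a one-sided Poisson p of 1e-05 or less, beside a background of 0.451% of all windows. All 14 lay in deposited peaks, and they marked 10 of the 12 peaks. The share of all peaks marked in this way is not given here. The window next in order, at chr7:67518901-67519200, had 9 CTCF tags and 1 IgG tag and just missed the limit (one-sided exact Poisson p = 1.2e-05). No window in the domain passed the reverse comparison, IgG over CTCF. Only 167 of 8849641 windows of the genome did, so that its absence from the domain says little.

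Away from the peaks the domain, like the genome outside peaks, was poorer in CTCF tags than in IgG tags. It held 6379 CTCF and 7532 IgG tags in all, a ratio of 0.806 (0.78 to 0.834), against 1.09 (1.08 to 1.09) for the rest of chromosome 7. Outside peaks the ratio was 0.766 (0.741 to 0.793), against 0.897 (0.896 to 0.898) over the genome. The ratio moved with base composition on the rest of the chromosome, from 0.736 (0.724 to 0.748) in windows of 36 to 38% G+C without a peak to 1.12 (1.11 to 1.14) in those of 47% and over. In the same 36 to 38% class the domain's 81 windows gave 0.769 (0.72 to 0.821). Its windows under 36% G+C gave 0.788 (0.742 to 0.837) against 0.739 (0.72 to 0.76). Those with 38 to 40% gave 0.725 (0.677 to 0.777) against 0.739 (0.729 to 0.748). The domain's 35 windows with 40 to 43% G+C gave 0.604 (0.532 to 0.686) against 0.787 (0.78 to 0.795). They averaged 18.1 IgG tags against 27.4. Windows of the domain with 43 to 47% G+C gave 0.479 (0.357 to 0.639) against 0.895 (0.887 to 0.903), but averaged 4.83 IgG tags against 31.7. From Magel2 to Peg12, outside the peaks, the ratio was 1.1 (0.942 to 1.28).

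**Figure D5:**
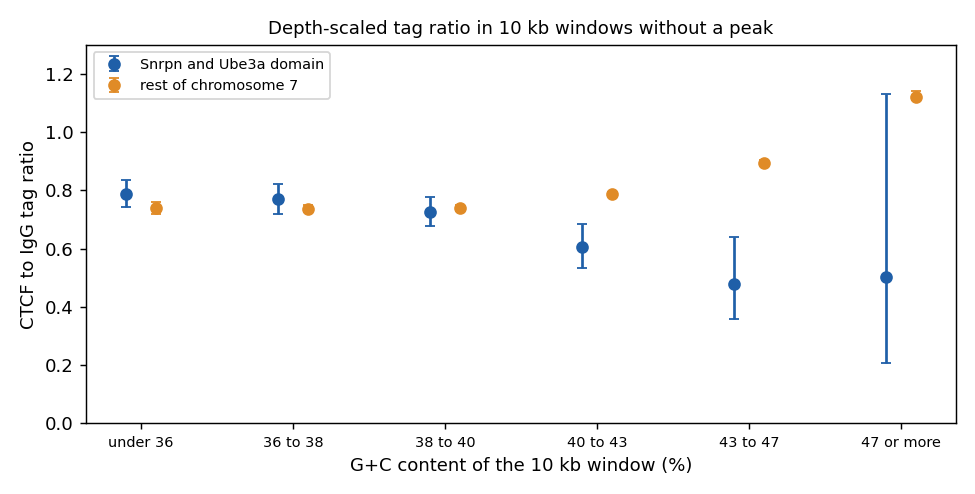
Depth-scaled CTCF to IgG tag ratio, with exact 95% intervals for counting error, in 10 kb windows without a peak, by G+C content in percent, for the domain (blue) and the rest of chromosome 7 (orange). Below 40% G+C the intervals of both overlap, and from 40 to 47% the domain's values lie lower.

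Other genes on a list of 16 known from this domain and its flanks were placed as follows. Of these, 13 were annotated by that name and 4 lay in the domain (Peg12, SNORD115, SNORD116 and Snord64, a small nucleolar RNA gene at chr7:67123694-67123760). The other 9 lay outside. Atp10a, a lipid transporter gene, ends at position 66084796 and Chrna7, for an acetylcholine receptor subunit, lies past the other edge from 70243578 on.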

How the data were processed

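The files of both ChIP-seq libraries were used as deposited. The authors aligned 35-base tags to mm9 (aligner not given in the sources used here) and deposited their positions, each with a tag count of 1. They called peaks with MACS 1.4 against IgG, and deposited a score for each peak and the summit signal, a height in tags. The 5 genes, the further gene list and the tests were chosen with earlier results of these data known.

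Tags were moved by 92 bp towards the fragment centre (fragment length 185 bp, from the strand distance at the 1000 peaks of highest score). Ratios were scaled by the library totals of 8391191 and 7988889 tags, with exact conditional 95% intervals. Gene starts (500 bp on each side) were tested with a two-sided exact binomial test, Benjamini-Hochberg adjusted over all protein-coding starts with a tag, and called at an adjusted p of at most 0.05. The 300 bp windows used the highest of the genome-wide and the 1, 5 and 10 kb IgG rates (effective genome 1870000000 bases). The CTCF motif matrix was built from 192 CTCF motif sequences of 19 bases in the study's supplementary sheet of motifs under RAD21 peaks, turned to one strand (pseudocount 1, base frequencies 0.29 for each of A and T, 0.21 for each of C and G), and p-values are exact under that model. Sequences came from the mm9 genome. The scripts ran in Python 3.11.15 with scipy 1.17.1, numpy 2.4.6, matplotlib 3.10.9 and pandas 2.3.3, and the test and the motif search were first tested on simulated data. Named were the 5 genes, listed genes within the region, those outside it by position, and every peak of the region. Alternatives were other flanks, score, window, motif and scaling limits.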

Additional observations from a re-analysis of the deposited data

How the results depend on the processing

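Of 24 alternatives over 10 results, 14 stayed within the limits set for a stable value and 10 moved. A score of at least 100 left 7 of the 12 peaks and stretched the longest empty distance to 3533.01 kb, 2989 kb of it in the domain and the rest before it, where the nearest summit was left out too. Scaling by the tags outside peaks gave a domain ratio of 0.899, leaving out the peaks gave 0.766, and counting within 150 bp of the summits gave a peak ratio of 11.7. With 1000 bp on each side, 0 of the 5 gene starts were called, so that the call at Ube3a was lost. The share of summits with a motif was 75% against 72.6% of all summits in the main setting, and fell below that of all summits in the alternatives. It was 83.3% at a motif p of 1e-04 (84.1% of all summits), 41.7% at 1e-06 (53.9%) and 25% within 50 bp (31.8%). Each of these domain shares had a 95% interval that held the share of all summits. The share of matches in a peak was 19.4% at 1e-06, against 25.8% on the rest of chromosome 7, and 1.21% (0.72 to 2.01) at 1e-04, against 4.35% (4.22 to 4.49). No paired analysis was possible because only a single library was made with each antibody, and the number of tags limits every value at a single gene start.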
